A study of Bos taurus with 43 samples.

Results

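Group 4 and group 2 are clusters that the study drew on a principal component plot of the muscle transcriptomes of 43 cattle. Within group A, the cluster of a later plot that held the cross-breed controls, 6 unknown animals belonged to group 4 (36, 37, 38, 49, 51 and 58) and 5 belonged to group 2 (263, 265, 266, 269 and 270). These 11 of the 43 animals are compared here. All were male beef cattle, for the most part Charolais, Limousine or crosses of both, sampled in the biceps brachii of the forelimb at slaughter, with routine vaccination and parasite treatment, and whether any of them had been given a growth promoter was not known. Of the other animals, 4 were positive for corticosteroid treatment, 10 were the unknown animals of group B, 5 were untreated cross-breed (Charolais by Limousine) controls and 13 were untreated Holstein controls. Each animal gave 1 RNA sample of whole muscle, hybridized to 1 single-colour bovine oligonucleotide array, so that the spread within a set is the spread between animals.

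The animals were chosen by their place on the study's own principal component plots of these signals. The components given here were computed anew from the normalized gene probes and are not those of the study's plots. On the first component of all 43 arrays, which carried 26.1% of the variance, group 4 scored from 20.5 to 78.8 and group 2 from 38.4 to 105.1. On the second component (20.4% of the variance), group 4 scored from -7.07 to 30.6 and group 2 from -69.1 to -18.2. Differences of gene probes between the sets are therefore given as descriptions, with the standard error (SE) over animals and with no test.

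Limb muscle is a mosaic of slow fibres, which burn fat and sugar in mitochondria, and fast fibres, which run largely on glycogen and phosphocreatine. Each fibre class uses its own versions of myosin, troponin and the calcium pump. Muscle and its connective tissue also keep a record of where in the body they formed, held in homeobox genes of the HOX clusters and in factors such as MEIS2, TBX3 and IRX3.

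The arrays of both sets were made close together and apart from the rest of the series. Animals 37, 38, 49 and 51 shared a slide scanned on one day, and 36 and 58 shared a second slide with group 2 animal 269, which was scanned on another day together with the slide of 263, 265, 266 and 270. These 11 arrays were the only ones of those 2 scan days, so that any difference between them and other animals cannot be told apart from a difference between scan days. The share of gene spots well above background was 68.8% ± 2.69 (SD, n = 6) in group 4 and 73.1% ± 3.64 (n = 5) in group 2. The 7 brightest spike-in RNAs, added to each sample before labelling and among the spots used for the normalization, had a mean log2 intensity of 11.78 ± 0.30 in group 4 and 12.01 ± 0.13 in group 2 (two-sided exact permutation test over all splits of the animals, p = 0.156, adjusted over 2 tests 0.312). The median local background was 48.8 ± 0.75 against 47.8 ± 2.02 intensity units (same test, p = 0.316, adjusted 0.316), and the smallest p that the design allowed was 0.00433.

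Markers of skeletal muscle were above background in all 11 animals. Mean log2 intensities in group 4 and group 2 were 15.67 and 15.62 for ACTA1 (skeletal actin), 17.46 and 17.27 for MB (myoglobin) and 16.33 and 16.58 for DES (desmin), and none of these was apart, nor were the 2 probes of TTN (titin), at 11.68 and 11.40 and at 9.77 and 8.99. The Y-linked gene ZFY was dim in both sets, at 2.84 to 4.34 in group 4, above background in 1 of 6 animals, and at 2.90 to 4.53 in group 2, above background in 2 of 5. In the other groups ZFY started at 5.47. A probe described as UTY, also Y-linked, was above background in all 11 animals, at 6.10 to 7.19 in group 4 and 5.83 to 6.74 in group 2.

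The 2 sets differed over a broad part of the transcriptome, in both directions. A probe was called apart where the set means differed by at least 2-fold, that is by 1 on the log2 scale, and the ranges of the 6 and the 5 animals did not overlap. Of 16354 probes that passed the filter on dim signals, 1440 were apart (8.81%), 891 of them higher (5.45%) and 549 lower (3.36%) in group 4. After a normexp background correction 672 were apart, 416 higher and 256 lower. The shares before that correction are what the drawing of the clusters would raise, and they serve here only as the background for the gene lists. The apart probes with a gene name covered 1146 genes. Over all 1440, the median absolute log2 difference was 1.47, with 349 probes past 4-fold and 49 past 16-fold. Ranges did not overlap at any fold for 2999 probes (18.3%), and 1207 of the 2647 probes past 2-fold had ranges that overlapped. The smallest apart difference was 1.0009, and the largest with separate ranges under the limit was 0.9999. Of the 1440 probes, 1170 were still 2-fold apart in the same direction when only 36 and 58 were set against group 2 within a scan day, although these animals had helped to choose the probes. The balance of directions depended on the scaling: 61.9% of the apart probes were higher in group 4 as normalized here, 50.3% where loess was run on each pair of arrays and 69.1% with no scaling between arrays.

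Among single genes, the mean log2 signals differed most at HOXA10 and HOXA9 on the low side of group 4 and at FOXG1B and RYR3 on the high side, in an order that rests in part on signals not above background in the dimmer set. HOXA10 lay at 10.63, 10.56, 10.35, 10.14 and 10.37 (log2 intensity) in animals 263, 265, 266, 269 and 270, and between 1.22 and 2.81 (median 1.74) in group 4. It was above background in every group 2 animal and in no group 4 animal, so that it was at least 91.0-fold lower in group 4. A bound of this kind sets the mean of the brighter set against the dimmest signal that counted as above background on each array of the dimmer set, or the signal of the probe itself where that was higher. FOXG1B, a forkhead transcription factor under an older symbol, lay between 8.93 and 10.43 (median 10.11) in group 4. In group 2 it lay at 1.57, 1.51, 1.21 and 1.56 in 263, 265, 269 and 270 and at 5.33 in 266, the only one of these above background. Without 266 no group 2 animal was above background, and FOXG1B was at least 71.0-fold higher in group 4. RYR3, a calcium release channel of the sarcoplasmic reticulum, behaved alike, with 6.71 to 9.23 (median 8.70) in group 4 and 1.51, 1.63, 3.95, 1.90 and 1.74 in group 2, and was at least 25.4-fold higher in group 4 without 266. In both genes animal 266 stood above the other group 2 animals without reaching group 4.

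Of the other genes among the 12 highest in group 4, ranked over probes that passed the filter, MEIS2 is described with the position genes. SLC16A7, a transporter of lactate and pyruvate, was higher by 6.05 (SE 0.58) in log2 difference (group 4 minus group 2) and FABP7, a fatty acid binding protein, by 5.34 (SE 0.44). FABP7 ran from 9.37 to 11.84 in group 4 and lay at 4.75, 5.48, 4.94, 5.59 and 5.89 in group 2. SCD5, a fatty acid desaturase, was at 11.61 to 12.78 against 7.71 to 8.51, a difference of 4.12 (SE 0.24). SH3KBP1, an adaptor of receptor endocytosis, differed by 4.60 (SE 0.24) and SHROOM3, an actin-binding protein, by 4.63 (SE 0.40). RSPO3, a secreted enhancer of Wnt signalling, was above background in 1 of 5 group 2 animals, and without that animal (265) was at least 24.5-fold higher in group 4. HS3ST2, a sulfotransferase acting on heparan sulfate, differed by 4.21 (SE 0.89) over all animals and by 2.45 within the shared scan day. The endocytic receptor CUBN and KIAA1644 were above background in all 6 group 4 animals and in no group 2 animal, and were at least 8.28-fold and 12.7-fold higher. The CUBN difference came to 0.83 after a normexp background correction, under the 2-fold limit.

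Of the 12 genes lowest in group 4 among probes that passed the filter, HOXA9 and IRX3 are described with the position genes. IRX5, which the filter removed and which was therefore not ranked, is described there too. BTBD11 was tight in both sets, at 6.12 to 7.26 in group 4 and 12.31, 13.32, 12.71, 12.38 and 12.53 in group 2, a difference of -6.15 (SE 0.26). UCP3, the uncoupling protein of muscle mitochondria, lay at 7.78 to 10.84 (median 9.24) against 14.54, 14.49, 14.47, 13.54 and 13.50, a difference of -4.93 (SE 0.56) that was -3.74 within the scan day. The kinase PAK6 was above background in 1 of 6 group 4 animals, and without that animal (51) was at least 17.5-fold lower in group 4. MYBPH, a myosin-binding protein, differed by -5.62 (SE 0.93), and by -3.58 within the scan day, and the amino acid transporter SLC7A8 by -5.38 (SE 0.76). FRZB, a secreted antagonist of Wnt ligands, lay at 4.68 to 8.20 in group 4 and at 10.51, 10.52, 11.51, 10.61 and 10.69 in group 2. CBLN4, a secreted cerebellin, was above background in no group 4 animal and at least 8.42-fold lower there, but its difference was -0.94 after the normexp correction. OXT, the oxytocin precursor, and CIB2, a calcium-binding protein, shared a pattern within group 2. OXT lay at 12.42, 11.81, 11.60 and 12.37 in 263, 266, 269 and 270 but at 7.88 in 265, next to the highest group 4 animal at 7.87. CIB2 lay at 12.11, 11.80, 11.70 and 11.53 in the same 4 animals and at 8.64 in 265. Without 265 the differences went from -4.48 to -5.31 for OXT and from -4.73 to -5.36 for CIB2.

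**Figure D1:**
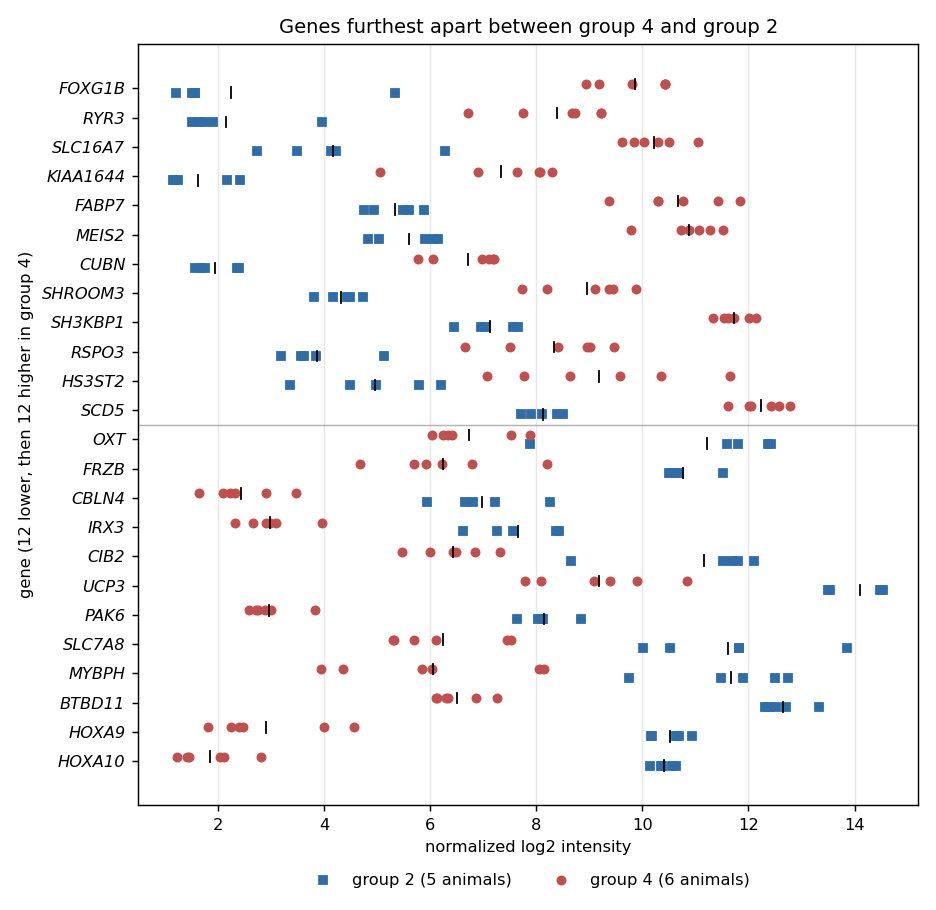
Normalized log2 intensity (x axis) of the 24 named genes with the widest gaps (y axis), 12 lower and 12 higher in group 4, with a point for each animal and a black bar at each set mean. Only probes that passed the filter on dim signals were ranked. The sets do not overlap in any row, and the nearest approach is OXT, where animal 265 of group 2 (7.88) lies beside the highest group 4 animal (7.87).

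Genes that mark position along the body axis and the limb were apart in part and not as whole clusters, and those apart lay in both directions. Of 33 HOX probes that passed the filter, 2 were apart and higher in group 4, 7 were apart and lower, and 24 were neither. The higher share (6.06%) was near that of all probes (5.45%), whereas the lower share was 21.2% beside 3.36%. The median log2 difference was -0.54 beside -0.07 over all probes. The HOX median was -0.36 within the scan day, and it was smaller in size after a normexp background correction. Of the 4 probes of HOXA9, 3 were apart. The first was at least 100.1-fold lower in group 4 without 38, its only animal above background, and the second was above background in 2 of 6 group 4 animals. The third was above background in no group 4 animal and at least 16.6-fold lower there, and the fourth lay at 3.21 to 5.89 against 5.65 to 6.81 and overlapped. At the first of them group 2 read 10.63, 10.69, 10.17, 10.16 and 10.93 and group 4 read 1.80 to 4.56 (median 2.44), above background in 1 of 6 animals. Both probes of HOXD9 were lower in group 4, by 4.02 (SE 0.33) and 3.86 (SE 0.37) on the log2 scale, and HOXD1 by 2.77 (SE 0.37). Their group 4 signals were above background in all animals. HOXD10 was removed by the filter on dim signals and is not among the 33 probes. It averaged 5.62 in group 2, above background in 4 animals, and 2.33 in group 4, above background in none.

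In the HOXC cluster, HOXC6 and 1 of the 2 probes of HOXC8 were higher in group 4. HOXC6 was at 10.25 to 10.82 (median 10.45) in group 4 and at 6.78, 8.20, 7.42, 7.77 and 8.01 in group 2, a difference of 2.87 (SE 0.25). One probe of HOXC8 differed by 2.26 (SE 0.43), with animal 265 at 8.95 as the group 2 animal nearest to group 4 (lowest 9.17), and at the other probe 265 lay at 5.41, just above the lowest group 4 animal at 5.34. HOXC9 overlapped, at 5.31 to 7.49 against 5.90 to 7.27, and so did HOXC4 and HOXC10, with differences of -0.27 and -0.58. Within the HOXA cluster, HOXA7 lay at 9.62 to 11.01 against 10.61 to 11.41 and HOXA5 at 8.37 to 9.96 against 7.81 to 8.68, both overlapping. HOXA13 was not above background in any of the 11 animals, and HOXA11 only in 266.

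Among 22 probes of limb position factors, 4 were higher and 5 lower in group 4 (median -0.60). The median was -0.31 within the scan day, and it was smaller in size after a normexp background correction. MEIS2, a homeobox partner of HOX proteins, was at 9.79 to 11.51 (median 10.97) in group 4 and at 5.03, 4.83, 6.15, 5.91 and 6.08 in group 2, a difference of 5.27 (SE 0.37). TBX3, a T-box factor of limb patterning, was at 7.98 to 9.48 (median 8.88) and at 4.22, 5.55, 4.84, 4.89 and 5.09, a difference of 3.87 (SE 0.35). Every group 4 animal lay above every group 2 animal for both. LBX1, a factor of migrating limb muscle precursors, and 1 of the 2 probes of PRRX1, a limb mesenchyme factor, were higher by 1.06 (SE 0.15) and 1.28 (SE 0.21). LBX1 came under 2-fold without 36 (0.99) or 266 (0.95). IRX3, an Iroquois homeobox factor, went the other way: it lay at 8.38, 8.43, 6.61, 7.27 and 7.57 in group 2, was above background in no group 4 animal, and was at least 13.5-fold lower in group 4. IRX5, a related gene, was removed by the filter on dim signals and is not among the 22 probes. It averaged 8.36 in group 2, above background in all 5 animals, and 3.27 in group 4, above background in 1 animal. TBX15 and SIX2 differed by -2.05 (SE 0.31) and -1.82 (SE 0.22). TWIST1 and BARX1, the other members apart and lower, were above background in 4 and 2 of the 5 group 2 animals and in no group 4 animal, and no fold is given for them. SHOX2, PITX1, TBX18 and TBX4 had means of -1.45, -1.41, -1.34 and -0.59 relative to group 2 with ranges that overlapped.

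Set beside the other animals, neither set was like one control group at all of these genes. HOXA10 averaged 10.65 ± 0.33 (SD, n = 5) in the cross-breed and 10.66 ± 0.35 (n = 13) in the Holstein controls, near the group 2 mean of 10.41, and 3.22 ± 1.66 (n = 10) in group B and 4.27 ± 0.60 (n = 4) in the positive animals. MEIS2 averaged 10.29 ± 0.46 in group B and 10.21 ± 0.54 in the positive animals, near the group 4 mean of 10.87, and 2.76 ± 0.99 and 4.88 ± 0.72 in the cross-breed and Holstein controls. IRX3 was high only in group 2, since the means of the other 4 groups ran from 2.70 to 3.86. HOXD9 at the probe with the wider gap averaged 10.67 in group 2, 8.41 ± 0.44 among cross-breed controls, and 6.14 and 6.65 in group B and the positive animals. HOXA11 and HOXA13, dim in the 11 animals, averaged 10.45 ± 0.78 and 9.06 ± 0.74 in the cross-breed controls.

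**Figure D2:**
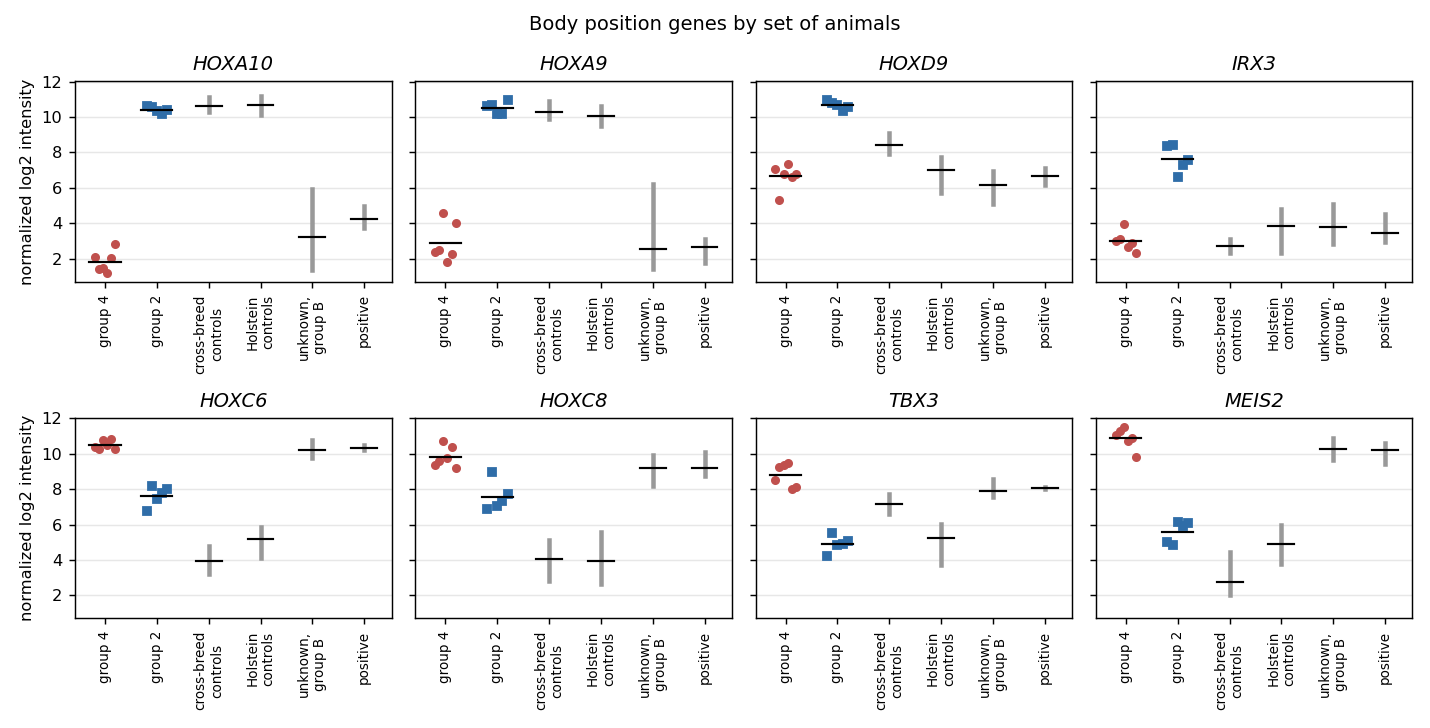
Normalized log2 intensity (y axis) of 8 position genes in the 6 sets of animals (x axis), with points for the animals of group 4 and group 2, grey bars from the lowest to the highest animal of the other sets and black lines at the means. HOXA10 and HOXA9 were high in group 2 and both control sets, MEIS2 was high in group 4, group B and the positive animals, and IRX3 was high in group 2.

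A part of the fast fibre genes was lower in group 4, and a part of the slow fibre genes was higher. Of 16 fast fibre probes, 7 were apart and lower and 1 was apart and higher, with a median of -1.51. Of 16 slow fibre probes, 5 were apart and higher and none lower, with a median of 0.92. The members that were apart on the fast side were ACTN3 (fast actinin), TNNT3 (fast troponin T), ATP2A1 (the fast calcium pump), MYBPC2 (fast myosin-binding protein C), TPM1 (tropomyosin) and 2 probes of MYH1 (a fast myosin heavy chain). ACTN3 was the clearest, at 13.02 to 14.69 (median 13.99) in group 4 and 17.39, 16.88, 17.52, 17.79 and 17.66 in group 2, a difference of -3.47 (SE 0.33). TNNT3 lay at 11.31 to 14.31 (median 12.35) against 15.33, 15.10, 16.59, 16.69 and 16.54. Its difference of -3.44 (SE 0.61) was -2.11 within the scan day. Among the 8 fast fibre probes that were neither, MYOZ1, the brightest of the list, overlapped at 17.49 to 17.89 against 17.50 to 17.99. MYL1 differed by 0.06 and CASQ1 by -0.30, whereas PVALB differed by -2.91.

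The group 4 animals differed among themselves at several fast genes. For MYBPC2, animals 49 and 51 read 16.51 and 16.06, close to the group 2 values of 16.58 to 16.84, and the other 4 read 12.65 to 13.26. For the MYH1 probe with the wider gap, 49 and 51 read 15.15 and 14.51 and the others 10.39 to 12.45, against 15.61 to 16.01 in group 2. ATP2A1 had the same order, with 16.02 and 15.27 in 49 and 51 and 11.75 to 13.60 in the others. At TNNT3 these same animals were among the lower ones, at 11.31 and 11.90, with 38 at 11.78. Both 49 and 51 lay on the slide that also held 37 and 38. Differences over all animals were -2.66 (SE 0.79) for MYBPC2, -2.92 (SE 0.78) for MYH1 and -2.75 (SE 0.70) for ATP2A1, while TNNC2 (fast troponin C) overlapped, with 49 at 17.11 beside the lowest group 2 animal at 17.10. The probe described as MYH4 ran against the list, at 10.66 to 12.22 in group 4 and 8.27, 8.61, 8.21, 9.31 and 8.55 in group 2. Myosin heavy chain genes are close copies of each other, so the identity of the transcript behind these probes is uncertain.

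On the slow side, the apart genes were those of calcium handling and less common myosins. Both probes of ATP2A2, the slow and cardiac calcium pump, were higher, by 2.58 (SE 0.12) and 2.80 (SE 0.34). At the first, group 4 lay at 9.80 to 10.42 (median 10.02) and group 2 at 7.21, 7.54, 7.53, 7.38 and 7.59. CASQ2, the calcium store protein of slow and cardiac muscle, differed by 2.67 (SE 0.28), MYH7B by 2.85 (SE 0.36) and the light chain MYL6B by 1.30 (SE 0.26). MYH7, the main slow myosin, lay at 16.53 to 17.10 against 16.39 to 16.74 and overlapped, TNNC1 differed by 0.41 (SE 0.11), and TNNT1 had separate ranges at a difference of 0.98 (SE 0.16), under the 2-fold limit. ANKRD2, a stretch-related protein, overlapped because animal 265 of group 2 read 13.14 where the other 4 read 9.45 to 11.07.

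**Figure D3:**
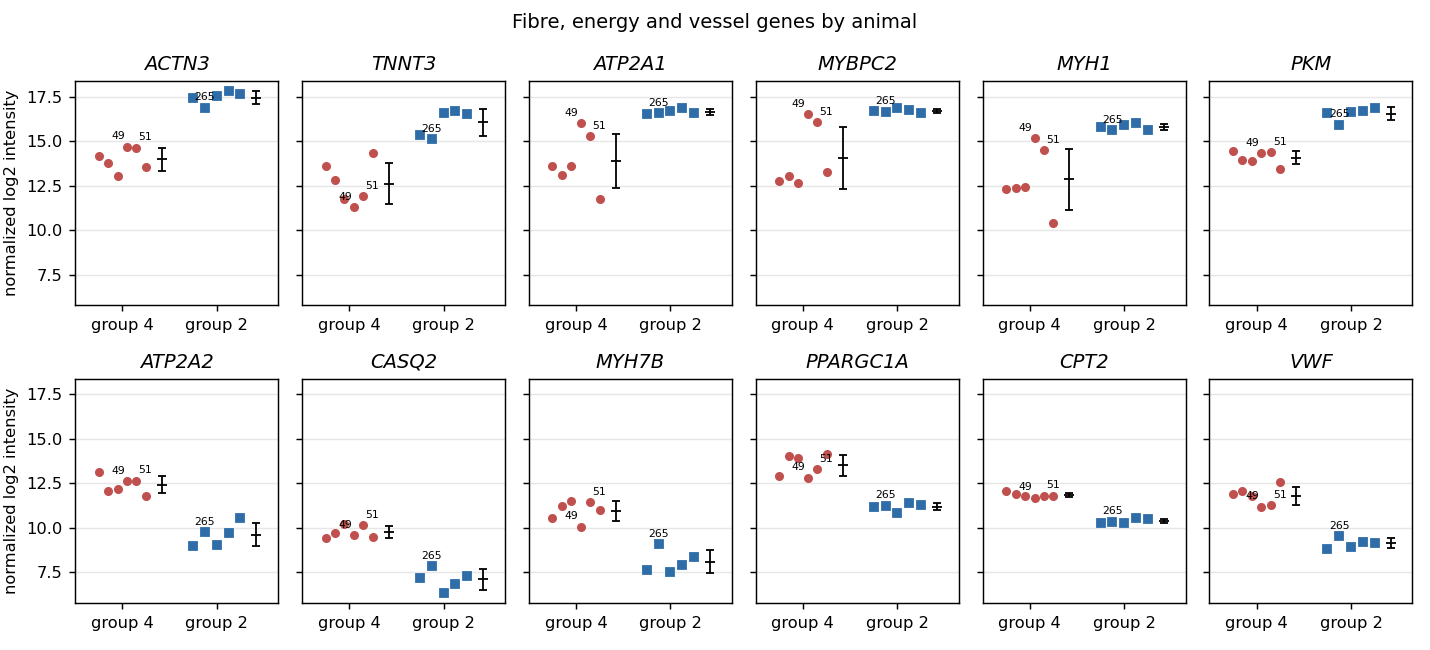
Normalized log2 intensity (y axis) of 12 fibre, energy and vessel genes in each animal of group 4 and group 2 (x axis), with mean and SD to the right of the points and animals 49, 51 and 265 marked. Animals 49 and 51 approach group 2 at ATP2A1, MYBPC2 and MYH1, whereas at ATP2A2, CPT2 and VWF all group 4 animals lie above group 2.

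A minority of the genes of sugar metabolism was apart. Of 26 glycolysis and glycogen probes, 6 were lower, 2 higher and 18 neither in group 4 (median -0.80). PKM, the muscle pyruvate kinase gene, lay at 13.45 to 14.43 (median 14.14) in group 4 and 16.60, 15.93, 16.61, 16.69 and 16.85 in group 2, a difference of -2.46 (SE 0.22). PHKA1, a subunit of phosphorylase kinase, differed by -2.25 (SE 0.31), and the glycogen phosphorylase PYGM by -1.12 (SE 0.16). UGP2 and PPP1R3A, of glycogen synthesis and its regulation, differed by -1.58 (SE 0.26) and -1.54 (SE 0.18). Of the 2 probes of GAPDH, 1 was apart by -1.73 (SE 0.22) and the other had separate ranges at -0.68 (SE 0.12). Aldolase A (ALDOA) overlapped, at 16.94 to 17.62 against 17.03 to 17.44. Higher in group 4 were PPP1R3C, by 1.45 (SE 0.30), and 1 of the 2 probes of the glycogen branching enzyme GBE1, by 1.33 (SE 0.19).

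Of 11 probes for creatine, adenylate and AMP metabolism, 3 were lower and 1 higher (median -0.98). AMPD1, the muscle AMP deaminase, lay at 12.03 to 12.62 in group 4 and 14.11, 13.49, 14.26, 14.36 and 14.26 in group 2, a difference of -1.61 (SE 0.17). Both probes of adenylate kinase AK1 were lower, by 1.75 (SE 0.29) and 1.15 (SE 0.19). CKB, the creatine kinase of brain and other tissues, was higher by 2.23 (SE 0.34), whereas CKM, the muscle form, overlapped at 15.65 to 16.43 against 16.35 to 16.76.

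Part of the genes of the citrate cycle and of fatty acid oxidation was higher in group 4. Of 35 probes, 12 were apart and higher, none was lower, 23 were neither, and the median was 0.89. PPARGC1A, the coactivator of mitochondrial biogenesis, was higher at both probes, by 2.33 (SE 0.28) and 2.03 (SE 0.28). At the first it lay at 12.82 to 14.13 (median 13.63) in group 4 and at 11.19, 11.25, 10.83, 11.39 and 11.31 in group 2. CPT1B and CPT2, which carry long-chain fatty acids into mitochondria, were higher by 1.40 (SE 0.16) and 1.46 (SE 0.08), and the CPT2 values were tight, at 11.70 to 12.08 against 10.28 to 10.54. HADHA and HADHB, the subunits of the trifunctional protein of fat oxidation, were higher by 1.24 and 1.42 at the 2 probes of the first and by 1.70 (SE 0.31) for the second. Citrate synthase (CS) differed by 1.09 (SE 0.11) and ACAT1 by 1.79 (SE 0.23). The respiratory chain and ATP synthase showed a small shift spread over many members: 79 of 82 probes had a higher mean in group 4, beside 7488 of all 16354, the median was 0.37, and only NDUFS1 passed 2-fold, at 1.004 (SE 0.17). That call was lost without any one of 36, 37, 38, 49, 266, 269 or 270, the least difference being 0.88 without 266. SDHA, the brightest of them, differed by 0.69 (SE 0.06), and its ranges of 17.60 to 17.90 and 16.95 to 17.15 were separate.

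Markers of vessels moved with these lists. Of 11 endothelial probes, 7 were apart and higher in group 4 and none lower, with a median of 1.46, the highest of the lists. VWF, the clotting factor carrier made by endothelium, lay at 11.20 to 12.57 (median 11.84) in group 4 and at 8.81, 9.53, 8.92, 9.23 and 9.17 in group 2, a difference of 2.67 (SE 0.26). The receptors TEK and KDR were higher by 2.04 (SE 0.14) and 1.97 (SE 0.19) and the junction protein CDH5 by 1.88 (SE 0.19). EMCN, TIE1 and ESAM were the other members apart. PECAM1, also a defining marker, overlapped, since the highest group 2 animal lay above the lowest of group 4 (10.92), and so did ENG, the brightest of the list. CLDN5 and PLVAP also overlapped, with differences of -0.16 and -0.32. Summed on the linear scale, the log2 level of the list ran from 13.78 to 14.52 in group 4 and from 12.43 to 13.12 in group 2. The part of vessel content in the oxidative and other lists was not tested, and in whole muscle more cells of a type and more RNA per cell cannot be told apart.

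Other cell types gave smaller or mixed values. Of 11 smooth muscle probes, 3 were higher (RGS5, MYH11 and MCAM, by 1.61, 1.34 and 1.27) and 1 lower (LMOD1, by 1.87), and the defining markers ACTA2 and TAGLN overlapped. S100B, found in Schwann cells and also in other cells, was higher by 2.11 (SE 0.19), and NCAM1 was the 1 member of that list of 8 that was apart and lower, by 1.10 (SE 0.28), or by 0.99 without 36 and 0.85 without 270. Of 30 probes for collagens and matrix, 5 were lower in group 4 and none higher (median -0.47). These were decorin (DCN) at 1 of 2 probes, by 1.69 (SE 0.42), MMP2 at both probes, by 1.63 and 1.62, the cross-linking enzyme LOX by 1.64 and the protease inhibitor TIMP1 by 1.14. COL1A1 and COL3A1 overlapped, and in both, animal 265 was the lowest of group 2, at 9.89 and 11.77. The summed level of this list overlapped, at 15.68 to 16.81 in group 4 and 15.80 to 17.30 in group 2. Of 27 leukocyte probes, only CD163, a macrophage receptor, was apart, by -1.47 (SE 0.26), and of 24 antigen presentation probes only TAP2, by 1.02 (SE 0.23), which came to 0.88 without 265, 0.95 without 58, and 0.93 and 0.94 without 49 and 51. The leukocyte sums ran from 12.37 to 13.78 and from 12.13 to 13.71, with LAPTM5 the brightest gene. Of 26 adipocyte and lipid probes, only GPAM, which starts triglyceride synthesis, was apart, by 3.06 (SE 0.36). FABP4, PLIN1 and CIDEC overlapped, and ADIPOQ was above background in 4 of 6 group 4 animals and in none of group 2. No blood probe was apart.

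**Figure D4:**
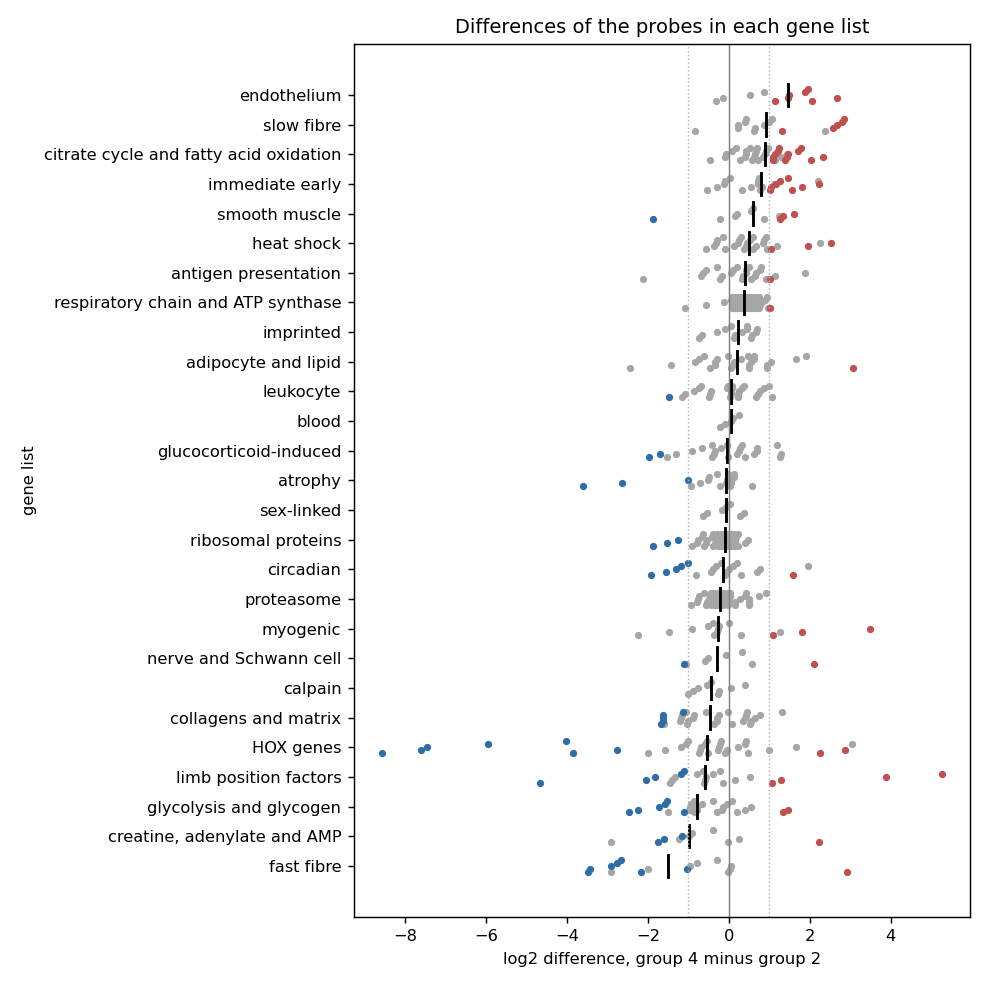
Log2 difference between group 4 and group 2 (x axis) of each probe that passed the filter in 27 gene lists (y axis), with black bars at the list medians, red points apart and higher, blue points apart and lower, grey points neither, and dotted lines at 2-fold. Endothelium has the highest median (1.46) and fast fibre the lowest (-1.51), while HOX genes and limb position factors hold the widest spread.

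Because the study asked about corticosteroids, the genes known to be induced by glucocorticoids were followed as a list. Of 24 probes, none was apart and higher in group 4 and 2 were apart and lower, with a median of -0.04. Those were GLUL, glutamine synthetase, by -1.97 (SE 0.36), and GADD45A, a stress-response gene, by -1.71 (SE 0.39). Within the shared slide they differed by -0.80 and -0.70, under the 2-fold limit. GLUL lay at 9.66 to 10.96 (median 10.57) in group 4 and at 12.88, 13.24, 12.41, 11.75 and 11.74 in group 2. FKBP5, a widely used marker of glucocorticoid action, split group 2, with 13.42, 13.52 and 13.14 in 263, 265 and 266 and 11.57 and 11.33 in 269 and 270. Group 4 ran from 9.91 to 12.76 and overlapped it. TRIM63, a ubiquitin ligase of muscle atrophy, had the same split in group 2 (15.65, 15.85 and 15.24 against 14.49 and 14.50), and group 4 lay at 13.70 to 14.45. FBXO32, another such ligase, overlapped at 12.59 to 14.25 against 12.57 to 13.67. Of 19 atrophy probes, 3 were lower in group 4 and none higher. MSTN (myostatin), the secreted brake on muscle growth, was above background in all 5 group 2 animals, at 6.18, 5.43, 5.70, 6.51 and 7.57, and in no group 4 animal, and was at least 5.20-fold lower. DDIT4L, an inhibitor of mTOR signalling, differed by -2.65 (SE 0.41), and BNIP3, a mitophagy receptor, by -1.002 (SE 0.19) at 1 of 2 probes. The BNIP3 call was lost without 36, 37, 58, 263 or 270, with differences of -0.99 to -0.87.

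A part of the early response genes and a few heat shock genes were higher in group 4. Of 22 immediate early probes, 8 were apart and higher and none lower (median 0.80). EGR1 lay at 11.54 to 14.14 (median 12.31) in group 4 and at 10.25, 8.44, 11.38, 10.61 and 11.25 in group 2, a wide spread on both sides around a difference of 2.23 (SE 0.71). JUN and FOS, the partners of the AP-1 factor, were higher by 1.81 (SE 0.30) and 1.26 (SE 0.29), and BTG2 by 1.55 (SE 0.34). FOSB, the brightest probe of the list, overlapped. Of 26 heat shock probes, 3 were higher and none lower, with a median of 0.49 that was 0.23 within the scan day, and 6 had a lower mean without being apart, the lowest being HSPB6 at -0.58. DNAJB1, a co-chaperone, lay at 11.46 to 13.20 against 9.26 to 9.73, a difference of 2.53 (SE 0.34), and HSPA1A differed by 1.95 (SE 0.27) at 1 probe and by 0.87 (SE 0.12) at the other, with separate ranges at both. HSPD1 was higher by 1.05 (SE 0.19), and fell under 2-fold without 36 (0.97) or 270 (0.93).

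Of 15 myogenic probes, 3 were apart and higher and none lower, but 9 had a lower mean in group 4 (median -0.27). PAX3, a factor of muscle progenitors, was above background in all group 4 animals, at 5.45 to 7.28 (median 6.57), and in 1 of 5 in group 2, at 2.19, 2.34, 4.15, 3.11 and 3.42. ANKRD1, a stretch-responsive cofactor, differed by 1.80 (SE 0.41) and the filament protein NES by 1.10 (SE 0.31), which fell to 0.93 without 58 and to 0.88 without 265. MYOD1, the myogenic regulator, lay at 9.42 to 11.55 against 11.78, 10.34, 13.21, 13.34 and 13.27 and overlapped through 265. PAX7, the satellite cell factor, was above background in 1 of 6 and 3 of 5 animals.

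The list values of single animals show where each set was uniform. For each list, the median over its probes of the deviation from the mean of the 11 animals was taken. All group 4 animals were above and all group 2 animals below 0 for endothelium (0.41 to 0.91 against -1.01 to -0.60), slow fibre (0.24 to 0.72 against -0.77 to -0.27) and the citrate cycle and fatty acid list (0.26 to 0.62 against -0.73 to -0.12). For fast fibre, animals 49 and 51 stood at -0.08 and 0.08 and the other group 4 animals at -1.07 to -0.32, while group 2 ran from 0.50 to 1.19. Animal 265 was the group 2 animal nearest to group 4 for the slow fibre and the citrate cycle lists, at -0.27 and -0.12, and it was the lowest of all 11 for the leukocyte list, at -1.02.

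**Figure D5:**
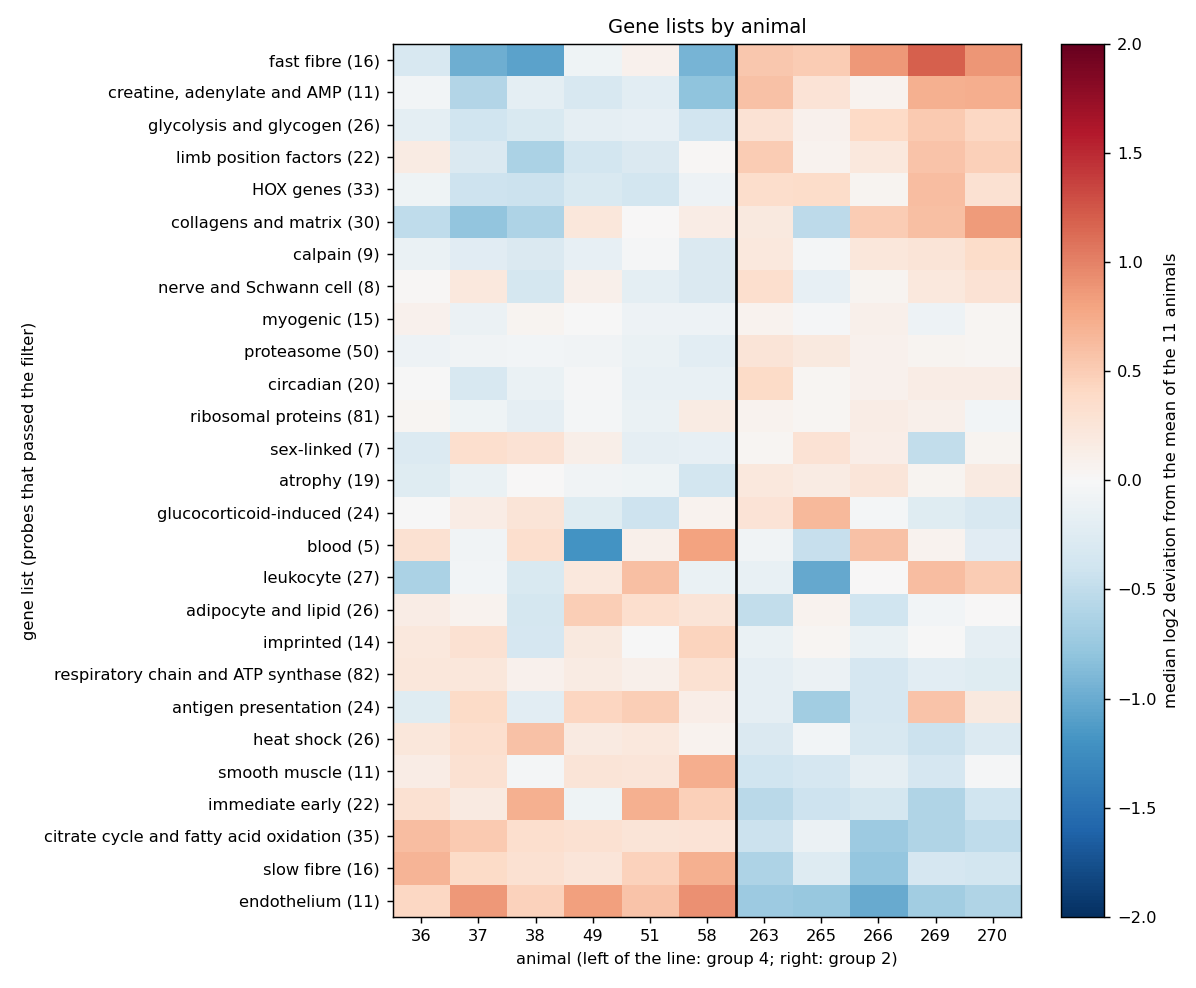
Median log2 deviation from the mean of the 11 animals (colour) for each gene list (y axis, with its number of probes) in each animal (x axis), group 4 to the left and group 2 to the right of the line. The endothelium list is positive in all 6 group 4 animals (0.41 to 0.91) and negative in all 5 group 2 animals, while the fast fibre list is near 0 in animals 49 and 51.

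Beside the other animals, the probes apart between the sets mostly had group 4 on the side of group B and of the positive animals. Of the 1440 apart probes, the group B mean lay nearer to group 4 than to group 2 for 1261 (87.6%) and the mean of the positive animals for 1185 (82.3%). Over all 16354 probes these shares were 65.1% and 61.4%. For the cross-breed controls the mean lay nearer to group 4 for 773 of the apart probes (53.7%, beside 55.1% over all probes), and for the Holstein controls for 675 (46.9%, beside 52.8%). Of the 24 genes with the widest gaps, group B and the positive animals lay nearer to group 4 in all 24, and the cross-breed controls lay nearer to group 2 in 16. PAK6 was one of the latter, at 7.69 ± 0.46 (SD, n = 5) in the cross-breed controls beside 8.15 ± 0.43 in group 2 and 2.96 ± 0.45 in group 4. OXT and CIB2 were not: the cross-breed controls averaged 7.94 ± 0.92 and 6.98 ± 0.79, where group 2 averaged 11.22 ± 1.90 and 11.16 ± 1.42. HOXA9 was counted at its probe with the widest gap. At its apart probe that was above background in no group 4 animal, the positive animals averaged 7.15 ± 0.29, near group 2. Group B averaged 5.04 ± 2.64 there, where group 2 averaged 7.99 and group 4 averaged 2.05. These shares are descriptions, since all groups entered the plots from which the clusters were drawn.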

How the data were processed

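RNA from whole biceps brachii was labelled with Cy3 and hybridized to single-colour Agilent bovine arrays, 1 per animal. The authors deposited the scanner output of each array, whose processed intensity is background-subtracted and not scaled between arrays, on a linear scale, with 42990 gene spots per array. The log2 of this intensity was normalized over all 43 arrays by cyclic loess on gene and spike-in spots (limma 3.58.1, R 4.3.3). Spots with outlier marks were left out, and spots of a probe were averaged. Probes under 4 on the log2 scale on at least 30 of 43 arrays were removed, with the limit and number of arrays named in the study's methods, which left 16354 of 21475. The scale to which the study applied that limit is not given in the sources used here. By its own count the study kept more transcripts than the probes kept here, so its filtered set differs. Other steps used Python 3.11.15, numpy 2.4.6, pandas 2.3.3, scipy 1.17.1 and matplotlib 3.10.9.

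Gene names came from identifiers and descriptions in the files, brought to the RefSeq table of ARS-UCD2.0. Of all probes, 16823 were named, 4652 were not, 218 of these because sources disagreed, and 692 kept a symbol absent from that table.

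The clusters, the gene lists and the rule for naming genes were chosen with earlier results of these data known. Named were the 12 genes with the widest apart difference in each direction, each well above background in all animals of the brighter set, list members that were apart (at most 4 each way per list) and up to 2 of the brightest that were not, and HOX, T-box, PITX1, SHOX2 and MEIS genes. A few further members were named after their values were seen, among them cell type markers, PAX7, MYOD1, FKBP5 and members of short lists. SE is pooled over both sets. The number of arrays, 1 per animal, limits the precision. Values of a few list members are not reported here. No probe was tested. Only array-level measures were, by exact permutation.

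The authors' processed table holds linear values. The log2 of these values correlated with the normalized values of the same array at 0.998 to 0.999 over 16285 probes, its column medians were 118 to 176 as deposited, and its normalization was not stated there. It was used as an alternative, beside quantile and 75th percentile scaling, loess on every pair of arrays, loess on the 11 arrays, no scaling, normexp correction (offset 50), other filters, a limit of 1.5-fold, leaving out each animal, and comparisons within scan day and slide.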

Additional observations from a re-analysis of the deposited data

Results flagged for a closer look

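In the 24 genes and other measures examined in each set, 54 series of 5 or 6 animals in all, 6 held a highest or lowest animal far from the rest. Chance alone marks about 1 in 20 such series. In group 2, animal 266 stood high for FOXG1B (5.33, next animal 1.57), RYR3 (3.95, next 1.90) and FRZB (11.51, next 10.69), on the log2 intensity scale. Animal 265 of group 2 stood low for CIB2 (8.64, next 11.53) and OXT (7.88, next 11.60). In group 4, animal 51 stood high for the kinase PAK6 (3.84, next 3.00). Animal 266 had the highest share of gene spots above background of the 11 arrays, at 79.2%, and the part of this in its values was not tested.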

How the results depend on the processing

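No difference of a named gene that was apart changed sign under any setting, whereas the medians of the antigen presentation, blood, circadian, glucocorticoid, leukocyte, myogenic, ribosomal and sex-linked lists each did under some. No paired analysis was possible because each animal carries a number of its own. Of 706 values for the counts of apart probes, the list medians and the spike-in level under other settings, 671 stayed within their limits. After normexp correction 672 probes were apart (416 higher, 256 lower in group 4), with list medians of -0.14 for HOX genes, -0.13 for limb position factors, -0.60 for glycolysis, 0.45 for the respiratory chain and 1.05 for endothelium. With a limit of 1.5-fold there were 2484 (1346 and 1138). Within the shared scan day (2 against 5 animals) 2058 were apart (1105 higher and 953 lower). Medians there were 1.31 for slow fibre, 0.48 for the respiratory chain, -0.67 for atrophy and 0.23 for heat shock. Within the shared slide (2 against 1) 2967 were apart (1548 and 1419), and medians were -2.35 for fast fibre, 0.48 for the respiratory chain, -1.002 for leukocyte, -0.46 for antigen presentation, -0.31 for atrophy and 0.040 for myogenic genes. The fewer animals of both comparisons leave ranges that overlap less often. Scaling to the 75th percentile moved the median of all probes from -0.07 to -0.18, and gave -0.86 for HOX genes, -0.95 for limb position factors, 0.27 for the respiratory chain and -0.28 for atrophy. Loess on every pair of arrays gave 1.27 for slow fibre, -0.57 for glycolysis and 0.49 for the respiratory chain, and quantile normalization 0.47 for the latter. For these the cause was not tested.

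Leaving out 1 animal at a time gave 1407 to 1763 apart probes (870 to 1078 higher, 537 to 698 lower), and an atrophy median of -0.26 to -0.046, the former without 38. The spike-in difference was -0.29 to -0.14, and without 269 it was -0.28 (exact permutation p = 0.0381, unadjusted). The glucocorticoid median went from -0.21 to 0.11. Dim signals limit the comparison: only a bound is given for 97 apart probes that were above background on no array of the dimmer set. Apart probes such as 1 of HLF, above background on no array of either set, have no bound and are not among these.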

Other observations

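Part of the clock genes were lower in group 4. Of 20 circadian probes, 5 were apart and lower (median -0.14). ARNTL, the partner of CLOCK in the positive arm, lay at 6.53 to 8.47 in group 4 and at 9.77, 10.36, 9.57, 8.49 and 8.86 in group 2, a difference of -1.93 (SE 0.46) with neighbours only just apart. RORA, a nuclear receptor that acts on ARNTL, differed by -1.32 (SE 0.25). The output factor HLF was lower by 1.01 and 1.56 at 2 probes, and the other was above background in none of the 11 animals.

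Of 81 ribosomal protein probes, 3 were apart and lower (3.70%), near the share of all probes (3.36%), and the median was -0.09. These were RPS27A by 1.87, RPL32 by 1.53 and RPS27L by 1.26. The probes of RPS27A and RPL32 were dim for this list. They averaged 5.34 and 6.53 in group 4 and 7.21 and 8.06 in group 2, where RPS13 averaged 16.70 and 16.98. No proteasome probe of 50 was apart, but 38 had a lower mean in group 4, beside 8866 of all 16354 (median -0.22). The proteasome list was below the mean of the 11 animals in every group 4 animal (-0.22 to -0.05) and above it in every group 2 animal (0.04 to 0.26), and its summed log2 levels did not overlap, at 18.80 to 18.85 against 18.92 to 19.14. None of 9 calpain probes (-0.44), 14 probes of imprinted genes (0.23), 7 sex-linked probes (-0.08), 5 blood probes (0.05) and 2 histone probes (0.50) was apart.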
